A study of Mus musculus with 27 samples.

Results

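The 10 genes described here encode secreted or membrane-bound chemokines that microglia can make: Ccl2, Ccl3, Ccl4, Ccl5, Ccl7, Ccl9 and Ccl12 of the CC family and Cxcl2, Cxcl10 and Cxcl16 of the CXC family. They were chosen by name as CC and CXC ligands. Each was found through its Ensembl gene identifier among the 53412 rows of the count table of the minocycline experiment and the 55421 rows of that of the enrichment experiment. All 10 passed the filter on low counts in both tables, among 14579 and 15921 genes tested. The study compared bulk polyA RNA of CD11b+ cells sorted from 2 brain regions, hippocampus (HC) and prefrontal cortex (PFC), of C57BJ6 mice under chronic unpredictable mild stress (CUMS), a stress model of depression in which mice meet mild stressors in an unpredictable order. In the minocycline experiment, CUMS_M mice had the stress protocol with minocycline, an antibiotic that is widely used to dampen microglial activation, CUMS mice had the protocol alone, and NAIVE mice were the unstressed controls. The libraries numbered 3 PFC and 3 HC for CUMS_M, 2 PFC and 3 HC for CUMS, and 2 PFC and 2 HC for NAIVE. In the enrichment experiment all mice had the stress protocol: EE mice were given environmental enrichment and VEH mice a vehicle, with 3 libraries per region and group and no unstressed group. No vehicle is named for the CUMS group of the minocycline experiment, and the labels give neither age nor sex. They also do not say whether HC and PFC libraries came from the same mice, or whether libraries of a group came from separate animals. P-values therefore measure the spread between libraries, which may be partly technical.

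The 27 libraries held 7867323 to 15278538 counts in the minocycline experiment and 19519117 to 23902719 in the enrichment experiment. The 12 microglia markers were abundant and summed to between 47597 and 60683 CPM (counts scaled to a common library size) in the minocycline experiment and between 37679 and 53153 CPM in the enrichment experiment, and every one was tested in both. CD11b is also carried by neutrophils, monocytes, border-associated macrophages and NK cells. The 12 neutrophil markers summed to between 845 and 4842 CPM in the minocycline experiment and the 10 border macrophage markers to between 335 and 1058 CPM, whereas the 12 T and NK cell markers summed to at most 34.8 CPM, with Cd3g at 0 in all 15 libraries. In bulk RNA, fewer cells of a type and less RNA per cell cannot be told apart, and a chemokine transcript cannot be assigned to one of these cell types.

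Chemokines are small proteins that guide leukocytes along a gradient by binding G protein-coupled receptors. Ccl2, Ccl7 and Ccl12 bind the receptor Ccr2 and draw monocytes. Ccl3, Ccl5 and Ccl9 bind Ccr1, and Ccl4 is a close relative of Ccl3 that draws macrophages and T cells. Cxcl2 draws neutrophils through Cxcr2, Cxcl10 is an interferon-induced ligand of Cxcr3, and Cxcl16 is a membrane-anchored ligand of Cxcr6 that also acts as a scavenger receptor. In microglia several of these genes are quickly transcribed after stimulation, through NF-kB and AP-1 sites in their promoters, and tissue dissociation itself is known to induce Ccl3, Ccl4 and the immediate early genes in isolated microglia.

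In the GENCODE M21 annotation of GRCm38, 8 of the 10 genes lie on chromosome 11. The genes for the Ccr2 ligands stand together at chr11:82035571-82037453 (Ccl2, plus strand), chr11:82045712-82047525 (Ccl7, plus strand) and chr11:82101845-82103400 (Ccl12, plus strand). A second cluster holds Ccl5 at chr11:83525778-83530518, Ccl9 at chr11:83572919-83578636 and Ccl3 at chr11:83647844-83649355, all on the minus strand, and Ccl4 at chr11:83662584-83664683 on the plus strand. Cxcl16 lies apart at chr11:70453983-70459984 on the minus strand. Cxcl2 lies at chr5:90903871-90905938 on the plus strand and Cxcl10 at chr5:92346638-92348889 on the minus strand. Exons of genes on the opposite strand cover 18.3% of the exons of Cxcl16 (Zmynd15) and 5.91% of those of Cxcl10 (Art3). The strand setting of the counting is not given in the sources used here, so reads of these pairs may be mixed.

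Promoters of 5 of the 10 genes, taken from RefSeq (GRCm38.p6), were searched over the 250 bases before the RefSeq start on both strands, and 4 are shown because they hold the motifs of the stimulus-driven factors or, for the most abundant of the 10, none of them. Capitals mark every match to a kB-like motif (GGG and TTCC with any 3 bases between), an AP-1 motif (TGANTCA), an interferon-response-like motif (GAAA and GAAA with any 2 bases between) or a TATA motif (TATAAA), and the motif of the macrophage factor PU.1 (GAGGAAGT) had no match in these genes. All are written 5′ to 3′ along the strand of the gene, at chr5:90903649-90903870 for Cxcl2, chr5:92348890-92349139 for Cxcl10, chr11:83578637-83578886 for Ccl9 and chr11:83649379-83649628 for Ccl3.
Cxcl2: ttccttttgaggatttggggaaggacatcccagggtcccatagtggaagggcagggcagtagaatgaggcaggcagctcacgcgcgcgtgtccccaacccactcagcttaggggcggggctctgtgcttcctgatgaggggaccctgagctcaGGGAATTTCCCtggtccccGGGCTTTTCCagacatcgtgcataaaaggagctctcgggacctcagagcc
Cxcl10: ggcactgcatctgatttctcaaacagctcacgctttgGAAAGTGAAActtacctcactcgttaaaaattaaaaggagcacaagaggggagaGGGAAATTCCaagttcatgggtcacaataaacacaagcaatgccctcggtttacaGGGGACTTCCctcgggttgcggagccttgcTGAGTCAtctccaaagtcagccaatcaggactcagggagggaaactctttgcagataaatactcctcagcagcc
Ccl9: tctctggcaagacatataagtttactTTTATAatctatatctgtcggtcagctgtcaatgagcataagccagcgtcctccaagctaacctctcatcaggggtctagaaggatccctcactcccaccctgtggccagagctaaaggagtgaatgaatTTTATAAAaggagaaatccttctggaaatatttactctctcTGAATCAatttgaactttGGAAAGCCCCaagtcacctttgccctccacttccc
Ccl3: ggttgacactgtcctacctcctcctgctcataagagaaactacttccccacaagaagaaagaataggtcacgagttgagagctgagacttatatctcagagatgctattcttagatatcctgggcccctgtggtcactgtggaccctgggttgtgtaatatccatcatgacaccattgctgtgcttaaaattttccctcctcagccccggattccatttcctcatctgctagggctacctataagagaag

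Cxcl2 had 3 kB-like matches, at 97 to 88 and 78 to 69 bases before the RefSeq start on the plus strand and at 96 to 87 on the minus strand, the last overlapping the first. The printed run of Cxcl2 is 222 bases long, because the final 28 bases lie inside the GENCODE gene. Cxcl10 had kB-like matches from base 159 and base 104 before its start, an AP-1 match from base 74 and the interferon-response-like match from base 213. Ccl9 had 1 kB-like match from base 35 on the minus strand, 1 AP-1 match from base 53 and 3 TATA matches, 2 of which overlap. The Ccl3 window had no match to any of the 5 motifs, and the promoter of Ccl12 had only a TATA match. Among all 32851 promoters of the same length in the table, the kB-like motif was found in 4.65%, AP-1 in 6.75%, the interferon-response-like motif in 2.98%, the PU.1-like motif in 2.44% and TATA in 12.4%. Of the 5 chemokine promoters, 3 held a kB-like match, 2 an AP-1 match, 1 an interferon-response-like match and 2 a TATA match. These matches describe letters and do not show that a factor was bound.

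Expressed as CPM per kilobase of exon, which allows levels of different genes to be compared, Ccl3 and Ccl4 were the most abundant of the 10 in both experiments. Median levels over the libraries of the minocycline experiment were 241 CPM per kilobase for Ccl3, 105 for Ccl4, 43.7 for Ccl9, 42.8 for Ccl12, 23.8 for Cxcl16, 15.4 for Ccl2, 11.1 for Ccl7, 6.75 for Ccl5, 1.78 for Cxcl10 and 1.75 for Cxcl2. In the enrichment experiment Ccl3 stood at 349 and Ccl4 at 216 CPM per kilobase, followed by Ccl12 at 54.1, Ccl9 at 34.7, Ccl2 at 19.0, Cxcl16 at 16.0, Ccl7 at 11.3, Cxcl2 at 5.73, Ccl5 at 2.82 and Cxcl10 at 2.10. Neighbours such as Ccl9 and Ccl12, or Cxcl10 and Cxcl2 in the minocycline experiment, overlapped in their ranges over libraries. For Cxcl2 and Cxcl10 the annotated exons cover the whole gene, introns included, so their levels were divided by a length of 2068 and 2252 bases that counts introns. The tables were made separately, so levels set across them are given side by side only.

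Libraries of the same group differed most for Cxcl2 and Cxcl10 in the minocycline experiment, with a pooled within-group SD of 0.74 and 0.68 on the log2 CPM scale, and least for Cxcl16 (0.17) and Ccl9 (0.19). The median of all tested genes was 0.25. Ccl2 (0.42), Ccl3 (0.47), Ccl4 (0.38), Ccl5 (0.44) and Ccl7 (0.52) also varied more than that median, and Ccl12 (0.29) lay near it. In the enrichment experiment Ccl5 (0.68) and Cxcl10 (0.64) varied most and Cxcl16 (0.12) least, beside a median of 0.29 over all tested genes.

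**Figure D1:**
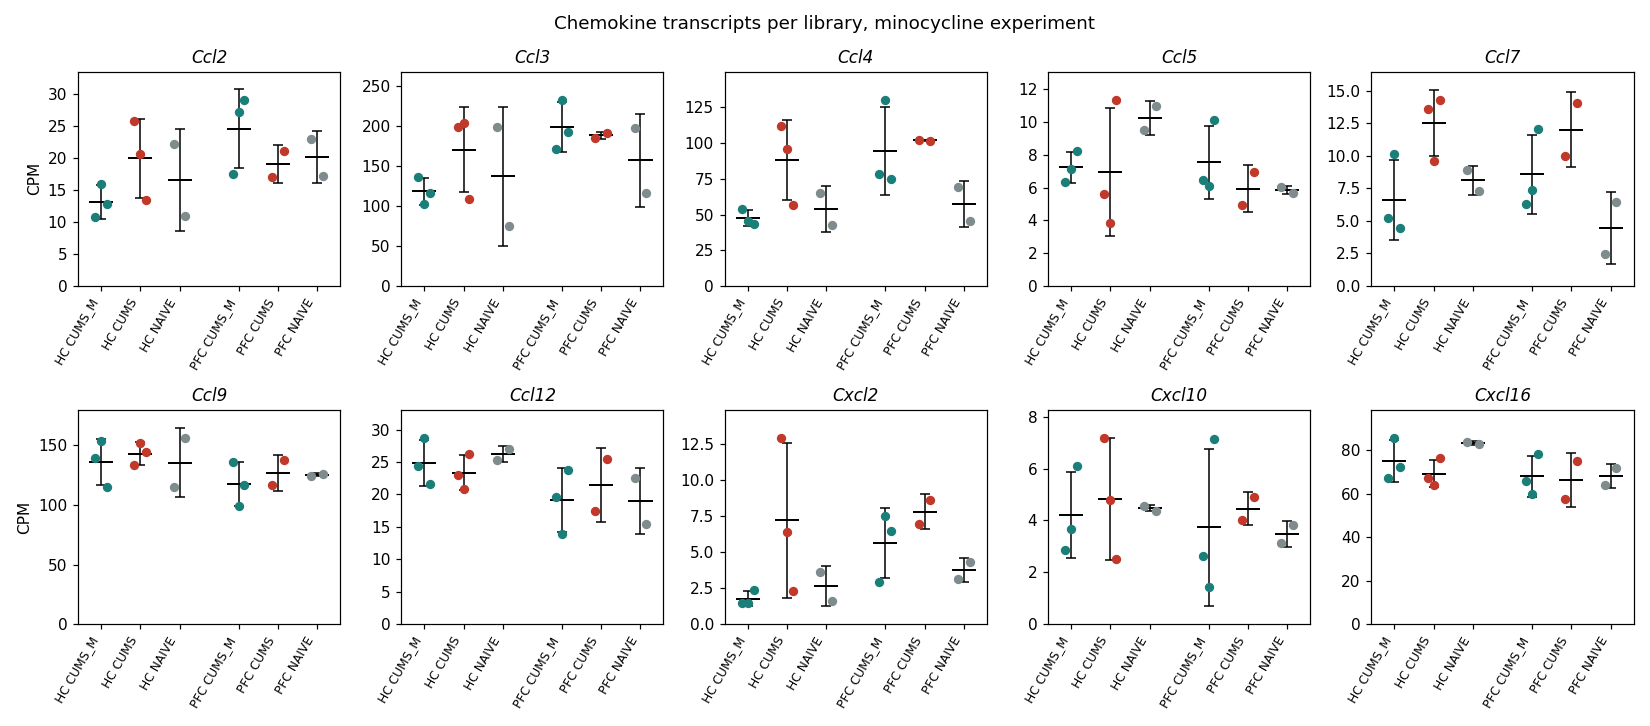
CPM of the 10 chemokines in each library of the minocycline experiment, with points for libraries and a line and bars for the mean and SD of each group of 2 or 3. In HC, the 3 CUMS_M libraries of Cxcl2 sit between 1.46 and 2.35 CPM and the 3 CUMS libraries spread from 2.30 to 12.9 CPM.

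Stress alone was examined by setting CUMS against NAIVE in each region. None of the 10 chemokines passed an adjusted p under 0.05 in either region in the edgeR quasi-likelihood test with Benjamini-Hochberg adjustment, where 0.816% of all tested genes did in PFC and 0.0% in HC. DESeq2 also called 0 of them in both regions. At an unadjusted p under 0.05 the counts were 2 of 10 in PFC, against 13.7% of all tested genes, and 1 of 10 in HC, against 2.87%. The values that follow are therefore levels with their spread, not called changes.

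Ccl7, a monocyte attractant of the Ccr2 group, had 9.94 and 14.0 CPM in PFC of CUMS mice, against 2.48 and 6.41 CPM in PFC of NAIVE mice. The groups did not overlap, and the log2 fold change was 1.42 ± 0.45 (SE; adjusted p = 0.165 by edgeR). In HC Ccl7 had 13.6, 9.59 and 14.3 CPM in CUMS libraries, against 8.89 and 7.31 CPM in NAIVE libraries, again without overlap (log2 fold change 0.62 ± 0.39, adjusted p = 1.0 by edgeR). The PFC value rested on a NAIVE pair that differed between its own members: without the second NAIVE library it was 2.26 with an adjusted p of 0.0324 by edgeR, and without the first it was 0.91 with 0.487. The other Ccr2 ligands showed no such separation. Ccl2 averaged 19.1 ± 2.92 CPM in CUMS and 20.1 ± 4.06 CPM in NAIVE in PFC (SD, n = 2 each), and Ccl12 averaged 21.5 ± 5.67 CPM in CUMS and 19.0 ± 5.09 CPM in NAIVE there.

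Ccl4, an attractant of macrophages and T cells, had 102 CPM in both CUMS libraries of PFC, against 69.0 and 45.7 CPM in NAIVE, with no overlap (log2 fold change 0.83 ± 0.37, adjusted p = 0.361 by edgeR). In HC its 112, 95.6 and 56.9 CPM in CUMS overlapped the 65.4 and 42.6 CPM in NAIVE. Ccl3, its neighbour on chromosome 11, ranged widely among NAIVE libraries, with 198 and 116 CPM in PFC and 198 and 75.0 CPM in HC. The CUMS libraries had 185 and 191 CPM of Ccl3 in PFC and 199, 203 and 109 CPM in HC, inside or close to that range. Ccl5 averaged 6.95 ± 3.93 CPM in HC of CUMS mice (SD, n = 3) and 10.3 ± 1.05 CPM in NAIVE (SD, n = 2), and Ccl9 differed between CUMS and NAIVE by 0.02 in PFC and 0.08 in HC on the log2 scale. The 95% intervals of Ccl9, -0.32 to 0.36 in PFC and -0.23 to 0.38 in HC, were among the narrowest of the set.

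Cxcl2, the neutrophil attractant, had 6.93 and 8.63 CPM in PFC of CUMS mice, against 3.14 and 4.31 CPM in NAIVE, without overlap (log2 fold change 1.06 ± 0.63, adjusted p = 0.478 by edgeR). In HC it had 12.9, 6.35 and 2.30 CPM in CUMS, against 3.62 and 1.63 CPM in NAIVE. The third CUMS library lay inside the NAIVE range there, and the log2 fold change of 1.44 ± 0.59 had an adjusted p of 1.0 by edgeR. Without the first CUMS library it was 0.73, and without the first NAIVE library 2.13. Cxcl10 averaged 4.46 ± 0.644 CPM in CUMS and 3.48 ± 0.484 CPM in NAIVE in PFC (SD, n = 2 each), without overlap, and 4.83 ± 2.34 CPM in CUMS and 4.47 ± 0.126 CPM in NAIVE in HC, with overlap. Cxcl16 had 67.2, 64.1 and 76.4 CPM in HC of CUMS mice, below the 83.7 and 82.7 CPM of NAIVE (log2 fold change -0.27 ± 0.14), while its PFC libraries overlapped. In HC 10.3% of all tested genes were higher without overlap, as Ccl7 was, and 10.1% lower, as Cxcl16 was. In PFC 4 chemokines (Ccl4, Ccl7, Cxcl2 and Cxcl10) were higher in both CUMS libraries than in both NAIVE libraries, as were 24.2% of all tested genes.

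Markers of other cells differed alongside these values in PFC. The 12 astrocyte markers summed to 774 and 848 CPM in CUMS libraries, against 235 and 273 CPM in NAIVE, and 7 of the 12 passed the edgeR test as higher. The 12 endothelial and mural markers summed to 184 and 239 CPM in CUMS, against 82.2 and 114 CPM in NAIVE, and 3 of them passed as higher. Of the neuron markers only Stmn2 passed, as higher (log2 fold change 7.47 ± 1.73, adjusted p = 0.0486 by edgeR). The 10 border macrophage markers summed to 652 and 820.4 CPM in CUMS and to 461 and 500.4 CPM in NAIVE. The neutrophil markers summed to 2777 and 2206 CPM in CUMS and to 3499 and 4842 CPM in NAIVE. The part of these cells in the chemokine values was not tested.

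Averaged over both regions, a comparison added after the values were seen, CUMS against NAIVE gave log2 fold changes of 1.02 ± 0.30 for Ccl7, 1.25 ± 0.43 for Cxcl2 and 0.77 ± 0.25 for Ccl4, with adjusted p of 0.144, 0.207 and 0.225 by edgeR. In that comparison 0.94% of all tested genes and 0 of the 10 chemokines were called by edgeR, 3 of 10 had an unadjusted p under 0.05 against 13.1% of all tested genes, and DESeq2 called 1, Ccl7, with an adjusted p of 0.0371. The difference between regions, HC minus PFC, had its smallest p for Ccl7, at -0.80 ± 0.59 (adjusted p = 0.917 by edgeR). That value was -1.62 without the second PFC library of NAIVE, -0.27 without the first and -0.52 without the second PFC library of CUMS. In this test 0 of the 10 differed at an unadjusted p under 0.05, against 6.27% of all tested genes, 0.0% of all tested genes passed the adjusted threshold in edgeR, and DESeq2 called 0 chemokines.

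Minocycline under stress was examined by setting CUMS_M against CUMS. No chemokine was called by edgeR in either region, beside 0.0206% of all tested genes in PFC and 0.00686% in HC, and DESeq2 called 0 in both, but gave no adjusted p for 6 of the 10 in HC, Ccl7 and Cxcl2 among them. In HC 3 of the 10 had an unadjusted p under 0.05, all lower in CUMS_M, against 4.01% of all tested genes in either direction and 1.53% lower. In PFC 0 of the 10 did, against 5.54%. This comparison uses the same CUMS libraries as the comparison with NAIVE, so a high or low CUMS library acts on both in opposite directions. Markers of other cells differed in PFC. The endothelial marker Cldn5 was lower in CUMS_M (log2 fold change -2.25 ± 0.36, adjusted p = 0.0410 by edgeR). DESeq2 called 6 of 12 astrocyte and 5 of 12 endothelial and mural markers as lower in PFC. In HC edgeR called no marker of either list, and DESeq2 gave no adjusted p for 10 and 12 of the 12. The smallest p of the endothelial and mural list in HC belonged to Rgs5 (-1.71 ± 0.47), Ly6c1 (-0.88 ± 0.33) and Pdgfrb (-0.77 ± 0.30). The other markers of that list are not given for HC. The part of these cells in the chemokine values was not tested.

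Cxcl2 showed the largest difference of the set, in HC. Its levels were 1.47, 1.46 and 2.35 CPM in CUMS_M libraries, against 12.9, 6.35 and 2.30 CPM in CUMS libraries. All CUMS_M values were low, while the CUMS libraries spanned a wide range and the lowest of them lay just under the highest CUMS_M value. The log2 fold change was -2.02 ± 0.52 (95% interval -3.12 to -0.92) with an adjusted p of 0.582 by edgeR. Without the first CUMS library it was -1.31 and without the third -2.44, with adjusted p of 1.0 and 0.0557 by edgeR. In PFC Cxcl2 had 2.90, 7.50 and 6.45 CPM in CUMS_M, against 6.93 and 8.63 CPM in CUMS (log2 fold change -0.47 ± 0.54).

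Ccl4 was the only chemokine whose HC groups did not overlap, with 53.7, 45.3 and 43.1 CPM in CUMS_M, against 112, 95.6 and 56.9 CPM in CUMS. Its log2 fold change was -0.89 ± 0.30 (adjusted p = 1.0 by edgeR), and 4.27% of all tested genes were likewise lower without overlap. Ccl3, its close relative, had 136, 103 and 116 CPM in CUMS_M, against 199, 203 and 109 CPM in CUMS, with overlap (log2 fold change -0.53 ± 0.37). In PFC Ccl4 averaged 94.7 ± 31.0 CPM in CUMS_M (SD, n = 3) and 102 ± 0.334 CPM in CUMS (SD, n = 2), and Ccl3 averaged 198 ± 31.3 CPM in CUMS_M and 188 ± 4.47 CPM in CUMS. Ccl5 and Ccl9 overlapped between CUMS_M and CUMS in both regions, with log2 fold changes between -0.11 and 0.36.

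Among the Ccr2 ligands, Ccl7 had 5.20, 10.1 and 4.47 CPM in HC of CUMS_M mice, against 13.6, 9.59 and 14.3 CPM in CUMS (log2 fold change -0.92 ± 0.34, adjusted p = 1.0 by edgeR). In PFC it had 6.29, 7.38 and 12.03 CPM in CUMS_M, against 9.94 and 14.0 CPM in CUMS (log2 fold change -0.47 ± 0.38, adjusted p = 1.0 by edgeR), the smallest p of the 10 there. Without the third PFC library of CUMS_M the value was -0.81, without the first it was -0.29, and without the second PFC library of CUMS it was -0.21. Ccl2 differed in sign between regions: it had 10.7, 15.9 and 12.8 CPM in HC of CUMS_M mice, against 25.8, 20.6 and 13.5 CPM in CUMS, but 17.5, 27.2 and 29.1 CPM in PFC of CUMS_M mice, against 17.02 and 21.2 CPM in CUMS. The difference of the 2 fold changes, HC minus PFC, was -0.97 ± 0.43 (adjusted p = 0.999 by edgeR). It was the one member with an unadjusted p under 0.05 in that test, where 3.47% of all tested genes had one and 0.00686% were called by edgeR, and DESeq2 called 0 chemokines. Ccl12, Cxcl10 and Cxcl16 overlapped between CUMS_M and CUMS in both regions. Their log2 fold changes in HC were 0.09 ± 0.19, -0.20 ± 0.47 and 0.11 ± 0.13, and the interval of Cxcl16, -0.15 to 0.37, was the narrowest of the 10.

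Averaged over regions, a comparison added after the values were seen, CUMS_M against CUMS gave -1.25 ± 0.37 for Cxcl2, -0.70 ± 0.26 for Ccl7 and -0.50 ± 0.22 for Ccl4 on the log2 scale, with adjusted p of 0.442, 0.586 and 0.731 by edgeR. These were the 3 of 10 with an unadjusted p under 0.05, against 6.73% of all tested genes. EdgeR called 0.0% of all tested genes there, and DESeq2 called 0 chemokines.

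CUMS_M was also set against NAIVE, which shows how treated stressed mice stood relative to unstressed ones. No chemokine was called by edgeR or DESeq2, beside 0.0892% of all tested genes called by edgeR in PFC and 0.0% in HC. In PFC Ccl7 alone had an unadjusted p under 0.05, against 14.0% of all tested genes. Its 3 CUMS_M libraries overlapped the NAIVE pair, with a log2 fold change of 0.94 ± 0.43 (adjusted p = 0.335 by edgeR). It was 0.43 without the first NAIVE library, 1.78 without the second and 0.61 without the third CUMS_M library. In HC 0 of the 10 did, against 2.33%, and the smallest p belonged to Ccl5, with 6.33, 7.14 and 8.21 CPM in CUMS_M, against 9.52 and 11.005 CPM in NAIVE, without overlap as in 8.16% of all tested genes (log2 fold change -0.51 ± 0.36, adjusted p = 1.0 by edgeR). In PFC Ccl4 and Ccl5 were higher in CUMS_M than in NAIVE without overlap, as were 13.9% of all tested genes. Cxcl2 in HC stood at 1.76 ± 0.511 CPM in CUMS_M (SD, n = 3) and 2.63 ± 1.40 CPM in NAIVE (SD, n = 2), and Ccl4 at 47.4 ± 5.61 CPM in CUMS_M and 54.0 ± 16.1 CPM in NAIVE. In both genes the HC libraries of CUMS_M overlapped those of NAIVE.

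**Figure D2:**
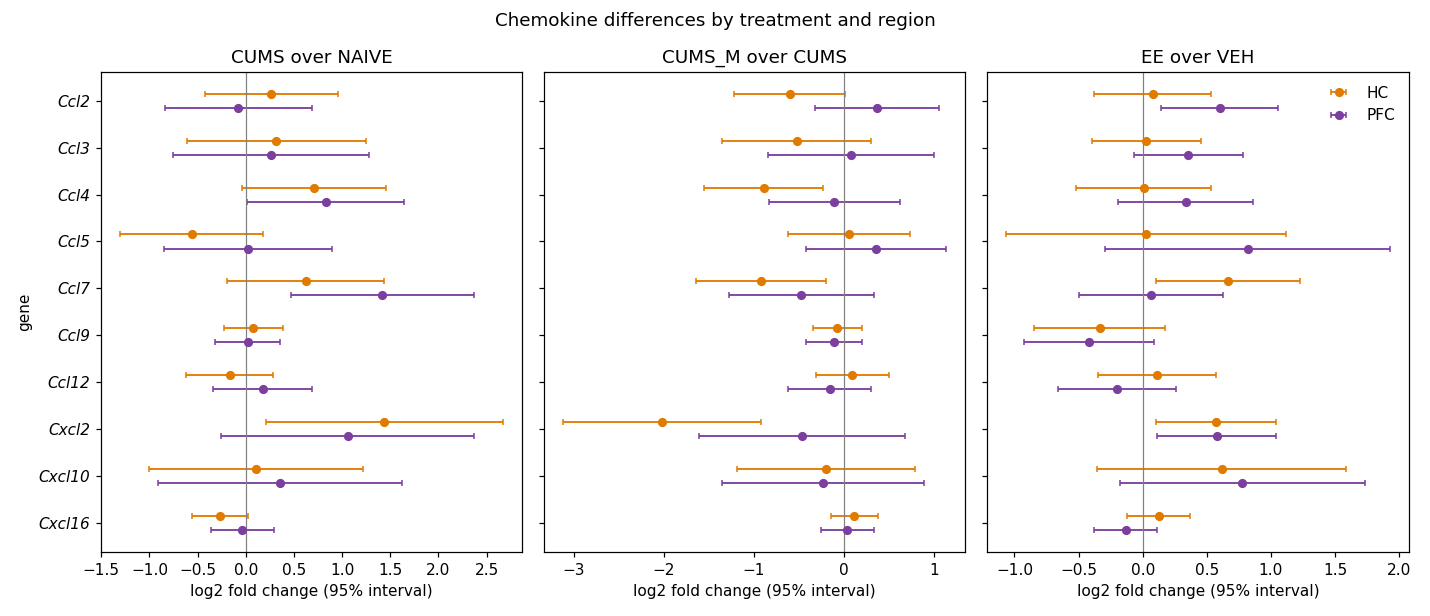
Log2 fold changes of the 10 chemokines with their 95% intervals from edgeR, for CUMS over NAIVE, CUMS_M over CUMS and EE over VEH, in HC (orange) and PFC (purple). Cxcl2 in HC lies at -2.02 for CUMS_M over CUMS, whereas Cxcl16 and Ccl9 stay close to 0 with short intervals in the left and middle panels.

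Enrichment under stress was examined by setting EE against VEH. Again 0 of the 10 chemokines were called by edgeR or DESeq2 in either region, and edgeR called 0.0% of all tested genes in both. At an unadjusted p under 0.05 the counts were 2 of 10 in PFC, against 4.25% of all tested genes, and 2 of 10 in HC, against 10.4%. All 4 were higher in EE, as were 2.52% of all tested genes in PFC and 6.58% in HC at that threshold.

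Cxcl2 was the one chemokine whose EE libraries all exceeded the VEH libraries in both regions. In PFC it had 12.1, 15.6 and 15.9 CPM in EE, against 8.23, 11.6 and 9.37 CPM in VEH (log2 fold change 0.58 ± 0.22, adjusted p = 0.986 by edgeR). In HC it had 12.6, 12.2 and 14.5 CPM in EE, against 9.76, 10.6 and 6.12 CPM in VEH (log2 fold change 0.57 ± 0.22, adjusted p = 0.354 by edgeR), and the value was 0.36 without the third VEH library. Of all tested genes, 4.8% in PFC and 9.66% in HC were higher in EE without overlap. The difference between regions was -0.01 ± 0.31, with an interval from -0.67 to 0.65. Averaged over regions, a comparison added after the values were seen, Cxcl2 stood 0.57 ± 0.15 higher on the log2 scale in EE (adjusted p = 0.199 by edgeR and 0.0302 by DESeq2). It was the only chemokine that DESeq2 called there, while edgeR called 0 of the 10 and 0.107% of all tested genes.

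Ccl2 had 33.2, 18.9 and 31.0 CPM in PFC of EE mice, against 16.0, 18.3 and 20.4 CPM in VEH (log2 fold change 0.60 ± 0.21, adjusted p = 0.986 by edgeR). The second EE library lay inside the VEH range. In HC Ccl2 averaged 22.9 ± 2.22 CPM in EE and 21.7 ± 4.95 CPM in VEH (SD, n = 3 each). The region difference of Ccl2, HC minus PFC, was -0.52 ± 0.30 (adjusted p = 0.998 by edgeR), the smallest p of the 10 in that test. There 0 of the 10 had an unadjusted p under 0.05, against 4.21% of all tested genes, edgeR called 0.0% of all tested genes, and DESeq2 called 0 chemokines. Ccl7 had 8.05, 10.6 and 17.01 CPM in HC of EE mice, against 8.30, 7.57 and 6.58 CPM in VEH (log2 fold change 0.67 ± 0.26, adjusted p = 0.378 by edgeR). Without the third EE library the value was 0.30. Ccl12 overlapped between EE and VEH in both regions.

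Ccl3 averaged 325 ± 55.4 CPM in EE and 254 ± 13.8 CPM in VEH in PFC, and 297 ± 36.9 CPM in EE and 291 ± 97.3 CPM in VEH in HC (SD, n = 3 each). Ccl4 averaged 174 ± 36.8 CPM in EE and 138 ± 20.1 CPM in VEH in PFC, and 147 ± 9.58 CPM in EE and 146 ± 63.3 CPM in VEH in HC. In HC both genes were highest in the second VEH library, with 398 CPM of Ccl3 and 219 CPM of Ccl4. Ccl9 had 103, 95.7 and 100.4 CPM in PFC of EE mice, against 190.5, 117 and 92.5 CPM in VEH, and 95.5, 122 and 108 CPM in HC of EE mice, against 158, 96.8 and 155 CPM in VEH. The groups overlapped in both regions, and the region-averaged log2 fold change was -0.38 ± 0.17 (adjusted p = 0.445 by edgeR), or -0.21 without the first PFC library of VEH. Ccl5 and Cxcl10 each had 1 high PFC library of EE, the second, with 6.91 and 14.7 CPM against at most 1.81 and 5.69 CPM in the other two. Region-averaged values were 0.34 ± 0.15 for Ccl2 and 0.70 ± 0.32 for Cxcl10 (adjusted p = 0.443 and 0.452 by edgeR), and with Cxcl2 and Ccl9 these made 4 of 10 at an unadjusted p under 0.05, against 10.8% of all tested genes. Without the second PFC library of EE the averaged Cxcl10 value was 0.35. Cxcl16 differed by -0.13 ± 0.11 in PFC and 0.12 ± 0.11 in HC on the log2 scale.

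**Figure D3:**
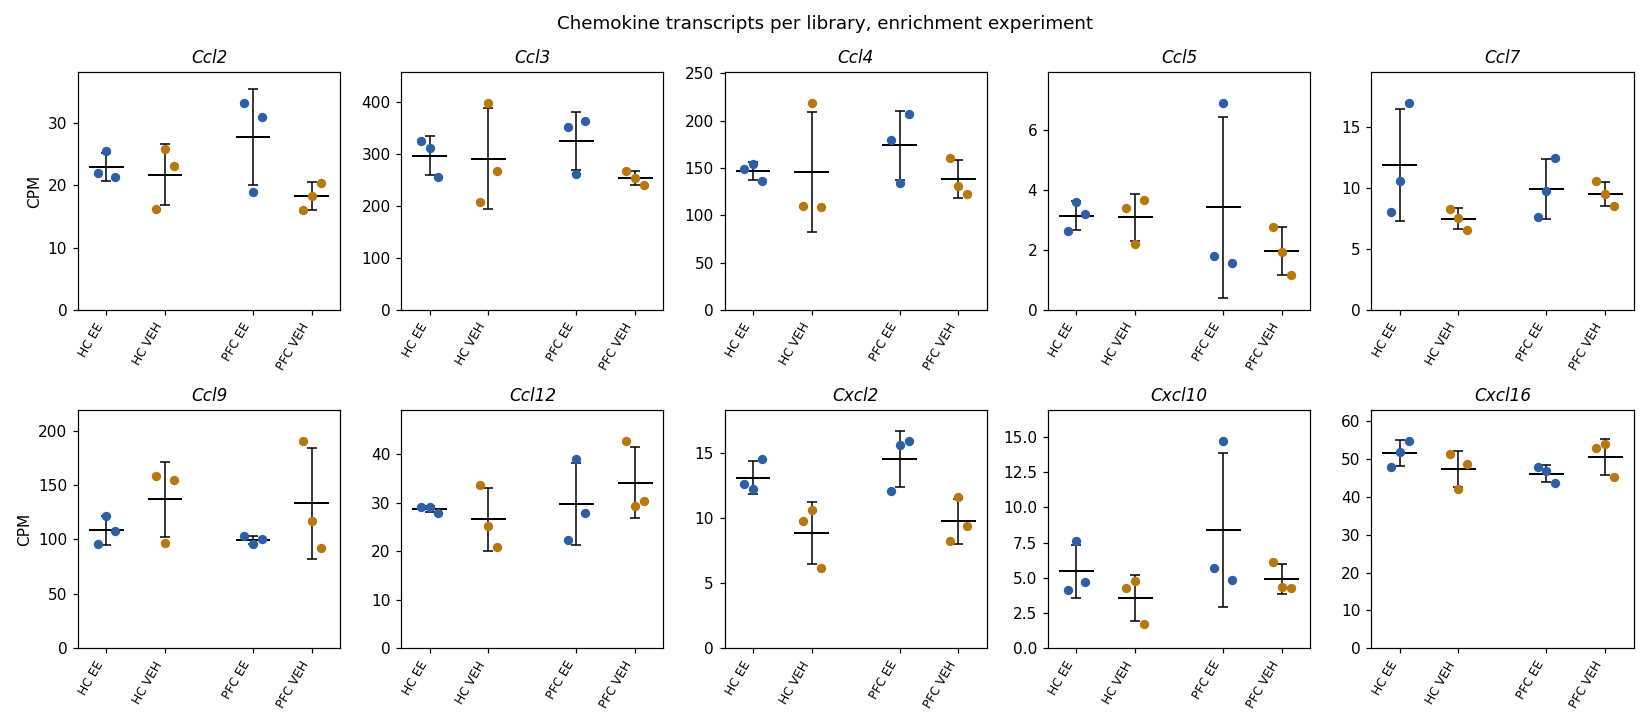
CPM of the 10 chemokines in each library of the enrichment experiment, with points for libraries and a line and bars for the mean and SD of each group of 3. The 3 EE libraries of Cxcl2 lie above the 3 VEH libraries in both regions, between 12.1 and 15.9 CPM in PFC and between 12.2 and 14.5 CPM in HC.

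Markers of other cells differed in HC of the enrichment experiment. The 10 border macrophage markers summed to 709, 626 and 859 CPM in EE, against 403, 369 and 475 CPM in VEH, and the 12 astrocyte markers to 995, 712 and 973 CPM in EE, against 587, 459.8 and 573 CPM in VEH. The 10 oligodendrocyte markers summed to 870, 619 and 482 CPM in EE, against 307, 245 and 316 CPM in VEH. EdgeR called 0 of these 3 lists, while 7 of the 10 border macrophage, 11 of the 12 astrocyte and all 10 oligodendrocyte markers stood at an unadjusted p under 0.05. DESeq2 called 6 border macrophage, 9 astrocyte and 8 oligodendrocyte markers as higher. In PFC the border macrophage sums overlapped between EE and VEH. The part of these cells in the Cxcl2 and Ccl7 values was not tested.

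Between regions, no chemokine was called by edgeR, although 5.1% of all tested genes were in the minocycline experiment, and DESeq2 called 0. In that experiment 3 of 10 had an unadjusted p under 0.05, against 19.0% of all tested genes: Ccl12 was at 0.32 ± 0.13, Ccl4 at -0.43 ± 0.19 and Cxcl2 at -0.76 ± 0.33 for HC over PFC on the log2 scale, with adjusted p of 0.169, 0.260 and 0.213 by edgeR. Beside these values, 4 of 12 astrocyte and 5 of 12 endothelial and mural markers passed the edgeR test as higher in HC than in PFC. The neutrophil marker Ly6g (-1.72 ± 0.45, adjusted p = 0.0410 by edgeR) and 2 of 10 neuron markers passed as lower. DESeq2 called 6 astrocyte and 6 endothelial and mural markers higher, and 8 neutrophil and 5 neuron markers lower. The part of these cells in the chemokine values was not tested. In the enrichment experiment edgeR called 0.0% of all tested genes, DESeq2 called 0 chemokines, and 0 of the 10 had an unadjusted p under 0.05, against 2.08%. The smallest p there belonged to Cxcl10, at -0.54 ± 0.32 (adjusted p = 1.0 by edgeR), or -0.20 without the second PFC library of EE. The Cxcl2 difference was -0.14 ± 0.15 in that experiment, with an interval from -0.47 to 0.19.

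Of 27 other chemokine ligands, 14 passed the filter on low counts in the minocycline experiment and 13 in the enrichment experiment. Cxcl14 and Ccl24 rose in PFC of CUMS mice. Cxcl14, a homeostatic CXC chemokine, averaged 15.2 ± 0.0927 CPM in CUMS and 2.91 ± 0.597 CPM in NAIVE (SD, n = 2 each; log2 fold change 2.38 ± 0.44, adjusted p = 0.0144 by edgeR). Ccl24, an eosinophil attractant of the CC family, averaged 15.03 ± 1.97 CPM in CUMS and 5.63 ± 0.574 CPM in NAIVE (log2 fold change 1.41 ± 0.32, adjusted p = 0.0393 by edgeR). In the same PFC libraries the astrocyte markers summed to 774 and 848 CPM in CUMS, against 235 and 273 CPM in NAIVE, and the border macrophage markers to 652 and 820.4 CPM, against 461 and 500.4 CPM. Their part in the Cxcl14 and Ccl24 values was not tested. In HC CUMS_M against CUMS the smallest p among these ligands belonged to Cxcl1, another Cxcr2 ligand, at -3.16 ± 1.45, Ccl24 at -0.45 ± 0.24 and Cxcl12 at -0.75 ± 0.50, each with an adjusted p of 1.0 by edgeR. The highest Cxcl1 level in any library of that experiment was 1.33 CPM. In the 13 comparisons not averaged over regions, Cxcl14 and Ccl24 in PFC CUMS against NAIVE were the only edgeR calls among the other ligands. DESeq2 called 3 as higher in PFC CUMS against NAIVE and 1 as lower in PFC CUMS_M against CUMS. It called 1 as higher in each of PFC CUMS_M against NAIVE, HC EE against VEH and HC against PFC of the minocycline experiment. Of the chemokine receptors, 12 and 14 of 23 were tested in the minocycline and the enrichment experiment, and edgeR and DESeq2 called 0 in any comparison, with 0 to 2 at an unadjusted p under 0.05. In HC CUMS_M against CUMS, however, DESeq2 gave no adjusted p for 10 of the 12 receptors and 13 of the 14 other ligands. It could not call those genes there.

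Of the receptors that bind these ligands, Ccr1 had a median of 31.6 CPM in the minocycline experiment and 24.6 CPM in the enrichment experiment. In the same order of experiments, Ccr2 had medians of 27.4 and 18.7 CPM, Cxcr2 11.2 and 8.44 CPM and Cxcr3 3.87 and 2.80 CPM. Cxcr6 did not pass the filter in the minocycline experiment and had a median of 0.684 CPM in the enrichment experiment. For HC CUMS_M against CUMS the smallest receptor p belonged to the fractalkine receptor Cx3cr1 (0.22 ± 0.08, adjusted p = 0.956 by edgeR), the decoy-like Ccrl2 (-0.54 ± 0.20) and Ccr1 (-0.44 ± 0.25).

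Genes of the pathways that induce chemokines were read in the same comparison. Of the 20 NF-kB genes, edgeR called 0 in HC CUMS_M against CUMS, DESeq2 called 2 as lower, and 5 had an unadjusted p under 0.05, with a median log2 fold change of -0.11 over the list and 0.01 over all tested genes. The NF-kB inhibitor gene Nfkbia was at -1.07 ± 0.21, the cytokine Il1b at -1.04 ± 0.24 and Tnf at -1.25 ± 0.33, with adjusted p of 0.555, 0.582 and 0.725 by edgeR. Of the 22 early response genes, such as Fos, Jun and Dusp1, 0 were called by edgeR and 9 by DESeq2, all lower, while 21 had an unadjusted p under 0.05 and all 22 lay below 0, with a median of -1.10. Plk2 (-1.39 ± 0.27), Ier2 (-1.23 ± 0.31) and Dusp1 (-1.31 ± 0.33) had the smallest p, with adjusted p of 0.273, 0.738 and 0.756 by edgeR. The 20 interferon response genes, which share inducers with Cxcl10, had a median of 0.04, with 0 called by edgeR or DESeq2 and 0 at an unadjusted p under 0.05. The smallest p among them belonged to Rsad2 (-0.52 ± 0.35), Gbp2 (0.33 ± 0.23) and Zbp1 (0.31 ± 0.32), each with an adjusted p of 1.0 by edgeR. DESeq2 gave no adjusted p for 18 of these 20, 11 of the NF-kB genes and 6 of the early response genes. Between regions of the minocycline experiment, Nfkbia, Il1b, Il1a and Nfkbiz of the NF-kB list and Dusp1 and Dusp2 of the early response list passed the edgeR test as lower in HC than in PFC, with log2 fold changes between -1.16 and -0.59.

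The summed early response genes were then set beside the chemokines, library by library. In HC the sum was 9144, 9968 and 7674 CPM in CUMS_M, 23205, 19034 and 11602 CPM in CUMS and 15649 and 8139.6 CPM in NAIVE. The HC library of CUMS with the lowest sum, the third, was also the lowest of its group in Ccl2, Ccl3, Ccl4, Cxcl2 and Cxcl10, and the highest in Ccl5 (11.4 CPM), Ccl7 (14.3 CPM), Ccl12 (26.2 CPM) and Cxcl16 (76.4 CPM). In PFC of the enrichment experiment the sum was 38822, 24622 and 37915 CPM in EE, against 25002, 22104 and 14141 CPM in VEH. The EE library with the lowest sum was the lowest of its group in Ccl2, Ccl3, Ccl4 and Ccl9. It was the highest in Ccl5 (6.91 CPM), Ccl12 (39.0 CPM) and Cxcl10 (14.7 CPM). Its Cxcl2 (15.6 CPM), Ccl7 (9.75 CPM) and Cxcl16 (46.9 CPM) lay between those of the other EE libraries. In the same HC groups of the minocycline experiment, neutrophil markers summed to 938, 1542 and 2826 CPM in CUMS_M, against 1115, 860.0 and 845 CPM in CUMS. All 12 had log2 fold changes above 0, 4 of them at an unadjusted p under 0.05 and 0 called by edgeR or DESeq2. DESeq2 gave no adjusted p for 6 of these 12 and could not call them. The part of early response induction and of other cells in the chemokine values was not tested.

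Relations across libraries were computed for log2 CPM. For the early response genes, the value of a library was the mean of their log2 CPM, not their summed CPM. There were 45 pairs of chemokines and 10 relations with this early response mean per experiment. Permutation p-values from 100000 resamples, 2-sided, were adjusted within each such family. Values were permuted over all libraries of an experiment, not within region or treatment. These p-values therefore do not separate differences between groups from variation within them. Ccl3 and Ccl4 gave r = 0.86 over 15 libraries of the minocycline experiment (rho = 0.81; adjusted permutation p = 0.0009 and 0.00783), with 0.85 within PFC, 0.85 within HC and 0.85 without the 2 libraries farthest from the median. In the enrichment experiment the pair gave r = 0.90 over 12 libraries (rho = 0.86; adjusted permutation p = 0.00315 and 0.0153), with 0.94 within PFC, 0.90 within HC and 0.80 without the 2 farthest. Ccl2 and Ccl3 gave r = 0.82 (rho = 0.81; adjusted permutation p = 0.00255 and 0.00783) and 0.81 (rho = 0.76; adjusted permutation p = 0.0351 and 0.0813) in the same order of experiments. In all, 8 of 45 pairs in the minocycline experiment and 2 of 45 in the enrichment experiment had an adjusted permutation p for r under 0.05. Libraries share depth and group, so these relations describe which transcripts varied together in these samples.

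Cxcl2 went with Ccl4 in the minocycline experiment (r = 0.85, rho = 0.84; adjusted permutation p = 0.00255 and 0.00585), but the value was 0.94 within HC (n = 8) and 0.61 within PFC (n = 7). Cxcl16 gave r = 0.74 with Ccl5 and 0.72 with Ccl12 (rho = 0.78 and 0.80; adjusted permutation p for r = 0.0121 and 0.0132), and these stood at 0.71 and 0.87 without the 2 farthest libraries. Neither relation had an adjusted permutation p for r under 0.05 in the enrichment experiment. In the minocycline experiment Ccl5 and Ccl12 gave r = 0.55 and Cxcl16 and Ccl4 gave -0.63 (adjusted permutation p for r = 0.122 and 0.0594).

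With the early response mean, 6 of the 10 chemokines had an adjusted permutation p for r under 0.05 in the minocycline experiment. Ccl4 gave r = 0.87 (rho = 0.89; adjusted permutation p = 0.0002 for both), with 0.97 within HC, 0.63 within PFC and 0.80 without the 2 farthest libraries. Cxcl2 gave 0.86 (rho = 0.81; adjusted permutation p = 0.0002 and 0.0027), with 0.93 within HC and 0.44 within PFC. Ccl2 (0.79) and Ccl3 (0.78) stood at 0.89 and 0.82 within HC but at 0.17 and 0.33 within PFC. The difference between regions was not tested. Ccl12 (-0.65) and Cxcl16 (-0.57) ran the opposite way. In the enrichment experiment 0 of the 10 had an adjusted permutation p for r under 0.05, and the highest value was again that of Ccl4, at 0.71 (rho = 0.83; adjusted permutation p = 0.0785 and 0.0134).

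**Figure D4:**
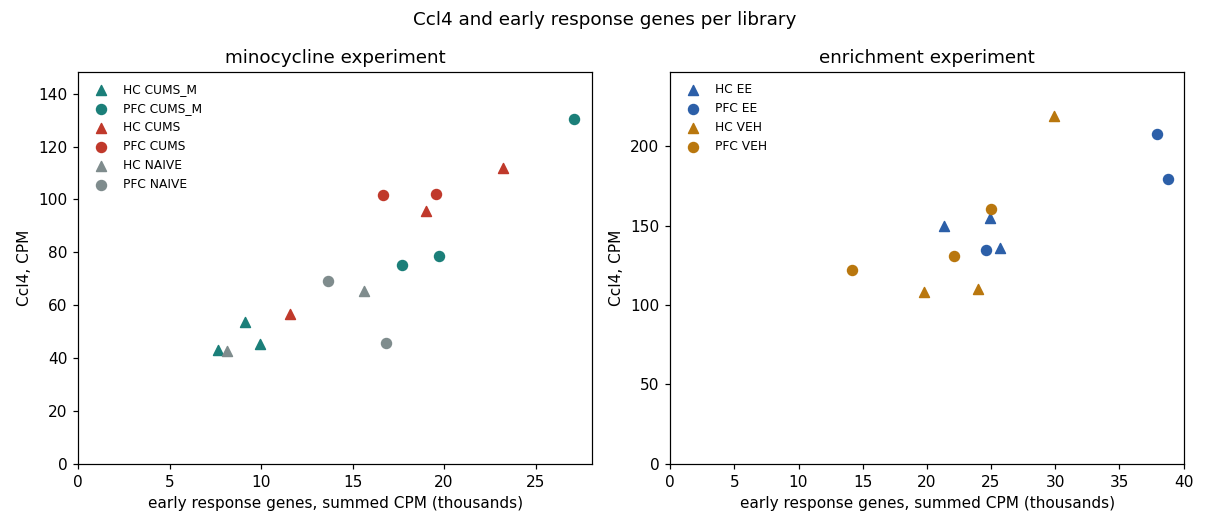
Ccl4 in CPM against the summed CPM of 22 early response genes, 1 point per library, for HC (triangles) and PFC (circles) in the minocycline experiment (left) and the enrichment experiment (right). The relation of log2 CPM of Ccl4 with the mean log2 CPM of these genes, not with the sum plotted, is r = 0.87 (left) and 0.71 (right). On the left, the 3 HC libraries of CUMS_M sit at the low end of both axes, as does the second HC library of NAIVE.

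Over all tested genes, those whose log2 CPM was most like that of Ccl4 across the 15 libraries of the minocycline experiment were Gadd45b (r = 0.96), Atf3 (0.93) and Tnfaip3 (0.91). Over the 12 libraries of the enrichment experiment the same genes gave 0.64, 0.87 and 0.69. The genes most like Ccl3 were Gadd45b (0.90), Dhx30 (0.88) and Smpd5 (0.87), with 0.54, 0.51 and -0.12 in the enrichment experiment. For Ccl2 they were Pck2 (0.89), Ypel3 (0.89) and Sirt7 (0.87), with 0.09, 0.09 and 0.26 in the enrichment experiment. For Cxcl10 they were the interferon-induced genes Oas2 (0.91) and Mx1 (0.84) and the kinase gene Pkmyt1 (0.86), with 0.23, 0.28 and -0.08 in the enrichment experiment. Of these 12 gene pairs, only those of Ccl4 stayed above 0.6 in the enrichment experiment.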

How the data were processed

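Bulk RNA-seq libraries of CD11b+ cells, 15 in the minocycline experiment and 12 in the enrichment experiment, were deposited by the authors as 2 tables of raw counts per Ensembl gene. Per the submitters' processing notes, the tools were Trimmomatic 0.36, STAR 2.6.1b, Picard 2.17.1, featureCounts 1.5.3 and DESeq2 1.24.0, and the build was mm10. The annotation release and the strand setting are not given in the sources used here. Each table was fitted alone with edgeR 4.0.16 (R 4.3.3): TMM scaling, filterByExpr with a minimum count of 10 and a minimum total of 15, one robust quasi-likelihood fit over all groups of the table, and Benjamini-Hochberg adjustment over all tested genes. A gene was called at an adjusted p under 0.05. CPM use TMM-scaled library sizes. Totals were 7867323 to 15278538 and 19519117 to 23902719 counts per library. No 2 libraries of a group agreed within sampling noise, with chi-square per degree of freedom between 5.85 and 103.5, so none was merged.

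The chemokines and the gene lists were chosen with earlier results of these data known. Every chemokine is accounted for in each comparison. Those with an unadjusted p under 0.05, or the one with the smallest p where there was none, are given with their statistics. Of the other ligands, receptors, NF-kB, early response and interferon genes, called genes are named and, for HC CUMS_M against CUMS, the 3 with the smallest p. Called markers of other cells also fell under that rule, but the marker lists are given by counts and sums. Region-averaged comparisons were added after values were seen. Symbols and positions come from GENCODE M21, which matched 53412 and 55240 of the IDs. Promoters come from RefSeq (GRCm38.p6). The table holds 250 bases before and 50 after the start, and only the bases before the start were searched. Ccl2, Ccl4, Ccl5, Ccl7 and Cxcl16 were not matched there.

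On simulated counts for HC CUMS_M against CUMS (13991 genes), the edgeR script recovered 65 of 100 genes changed 2-fold and 86 of 100 changed 4-fold, with 0 in the wrong direction. It also called 6 unchanged genes. Recovery was 58 and 85 in HC EE against VEH and 62 and 78 in PFC CUMS against NAIVE, with 9 and 10 unchanged genes called. The least expressed genes were never among those changed. These rates pool genes of any spread and do not give the rate for genes as variable as Cxcl2. Alternatives were DESeq2 1.42.0, its size factors in edgeR, no filter on low counts, only the groups compared, the replicate number as a block, and leaving out each library. Same-numbered libraries deviated together with every correlation over 0.1 in PFC EE against VEH (0.36, 0.20 and 0.21) and in no other treatment comparison within a region. The numbers may mark pairs there, but the labels name no pairing. The values in the Results come from fits without the block. Same-numbered HC and PFC libraries of a treatment did not all correlate over 0.1 in any treatment, with 0.44, -0.04 and 0.22 in VEH. Regions were therefore not taken as paired, but this rule cannot exclude that HC and PFC libraries came from the same mice. Comparisons between regions and region averages treated the libraries of both regions as independent. Relations used scipy 1.17.1. One chemokine receptor is not reported here.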

Additional observations from a re-analysis of the deposited data

How the results depend on the processing

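The count of chemokines called was 0 in every comparison and stayed 0 in most alternatives. With no filter on low counts it was 1 in PFC CUMS against NAIVE (Ccl7, adjusted p = 0.00653 by edgeR), 1 in HC CUMS_M against CUMS (Cxcl2, adjusted p = 0.000505 by edgeR), 2 in HC against PFC of the minocycline experiment (Ccl2 and Cxcl2, adjusted p = 0.0470 and 0.0483 by edgeR), 2 in region-averaged CUMS against NAIVE (Ccl7 and Cxcl2), 1 in region-averaged CUMS_M against CUMS (Cxcl2) and 1 in region-averaged EE against VEH (Cxcl2). DESeq2 called 1 in region-averaged CUMS against NAIVE (Ccl7) and 1 in region-averaged EE against VEH (Cxcl2). Leaving out 1 library gave 0 to 1 in PFC CUMS against NAIVE and in its region average, where the 1 was Ccl7 without PFC NAIVE replicate 2 (log2 fold changes of 2.26 and 1.45), and 0 elsewhere. No named chemokine reversed its direction. The cause of these shifts was not tested.

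With the replicate number as a block the count was 0 in every comparison, including PFC EE against VEH, where same-numbered libraries deviated together. Ccl7 in PFC CUMS against NAIVE was then 1.48 (adjusted p = 0.177 by edgeR) and Cxcl2 in HC CUMS_M against CUMS -1.77 (0.768). Over all genes, edgeR, DESeq2, no filter and the block called 119, 348, 402 and 63 in PFC CUMS against NAIVE, 3, 85, 170 and 0 in PFC CUMS_M against CUMS, 1, 36, 31 and 5 in HC CUMS_M against CUMS, and 0, 441, 278 and 73 in HC EE against VEH. Of the 10, Cxcl2, Cxcl10, Ccl5 and Ccl7 rest on the fewest counts.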
